A study of Mus musculus with 2 samples.

Results

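Droplets with at least 500 UMIs (unique molecular identifiers, each marking 1 captured RNA molecule) of which more than 20% came from the 13 genes of the mitochondrial genome (mt- genes) were examined in 2 libraries of heart B cells. There were 709 such droplets among 3208 droplets of at least 500 UMIs in the neonatal library (22.1%) and 1177 among 5687 in the adult library (20.7%), 1886 of 8895 in all. They are called mt-rich droplets here, and were compared with the 2158 neonatal and 3846 adult droplets of the same libraries with at most 10% mt- UMIs, called comparison droplets. The mt- share chose the droplets and is therefore a description and not a result.

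Live B cells were flow-sorted on 1 day from digested hearts of wild-type C57BL6/J mice and sequenced with the Chromium Single Cell 3′ v3 kit. The neonatal mice were 2 weeks old (15 days in the sample title) and of both sexes, the adult mice were 8 weeks old and male, and neither age received a treatment. Each age was 1 library from 6 pooled mice, so mice cannot be told apart, no test across samples can be made, and age, sex and library cannot be told apart. The files held 26866958 gene UMIs for the neonatal and 49500780 for the adult library. Intervals below are exact 95% intervals and cover counting error only.

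A cell whose outer membrane is damaged loses the soluble mRNA of its cytosol first, while RNA enclosed in mitochondria or held in the nucleus tends to stay behind. For that reason a high share of mt- UMIs is commonly used to discard droplets from single-cell data. Malat1 is a long non-coding RNA held in nuclear speckles, bodies that store splicing factors, and is a usual sign of nuclear RNA in a droplet. Messenger RNAs of ribosomal proteins and translation factors are by contrast exported and translated on free ribosomes, and mRNAs of membrane and secreted proteins, such as those of the antigen receptor and MHC class II of B cells, are translated on the endoplasmic reticulum, whose membrane is continuous with the nuclear envelope.

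The annotation (GRCm38) places Malat1 (ENSMUSG00000092341) on the minus strand as a lincRNA of 1 exon at chr19:5795690-5802672. Its 3′ end is formed by cleavage and not by polyadenylation, and a genomically encoded A-rich tract there folds with U-rich stretches into a triple helix that protects the RNA. The tract is shown because Malat1 carries most of the nuclear signal described here and because the assay captures RNA by stretches of A. It is the longest run of A in the annotated transcript, 12 bases at positions 6674 to 6685 of 6983, and the 112 bases around it lie at chr19:5795938-5796049 on the minus strand (GRCm38, 5′ to 3′, run of A in capitals).

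Malat1: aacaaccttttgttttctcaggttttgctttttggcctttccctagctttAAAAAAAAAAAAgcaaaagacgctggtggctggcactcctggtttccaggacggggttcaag

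The mt-rich droplets were shallow outside the mt- genes and not especially rich in mitochondrial molecules. They held a median of 872 UMIs outside mt- genes for the neonatal and 704 for the adult library, against 5493 and 5257 in comparison droplets. Their median of mt- UMIs was 475 and 343, against 440 and 402 in comparison droplets. By these medians the droplets with a high mt- share had a similar number of mt- molecules and several times fewer molecules of all other genes. Those with over 60% mt- UMIs, described below, held more mt- UMIs, with medians of 698.5 and 577. Just outside and just inside the limit, the 25 neonatal droplets with 19 to 20% mt- UMIs had a median of 1793 UMIs outside mt- genes, and the 29 with 20 to 21% had 1652. In the adult library the corresponding 45 and 50 droplets had 1316 and 1195. Below the UMI limit, 38 of the 85 neonatal and 101 of the 193 adult droplets with 400 to under 500 UMIs also had over 20% mt- UMIs. Most of these, 31 neonatal and 81 adult ones, had over 60%. Together the mt-rich droplets held 695108 UMIs outside mt- genes for the neonatal and 957666 for the adult library, and comparison droplets 15352149 and 32459573. A barcode that also had at least 500 UMIs in the other library was carried by 4 neonatal and 7 adult mt-rich droplets.

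The mt- share separated the droplets into 2 sets. From 20% upward their number fell to 15 neonatal and 18 adult droplets at 50 to 60% and to 3 and 5 at 60 to 70%, and rose again to 42 and 72 at 80 to 90%. The limit of 60% between the sets was chosen after these values were seen. It left 603 neonatal and 1054 adult droplets with 20 to 60% mt- UMIs, and 106 and 123 with over 60%.

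Malat1 marked the first set and not the second. Malat1 made up a median of 11.9% of the UMIs outside mt- genes in the neonatal droplets with 20 to 60% mt- UMIs and 12.3% in the adult ones, against 3.02% and 2.91% in comparison droplets. Of the 603 neonatal droplets 569 (94.4%) lay above the 95th percentile of their comparison droplets, which was 5.14%, and of the 1054 adult droplets 1027 (97.4%) lay above theirs, 4.69%. In the droplets with over 60% mt- UMIs the median Malat1 count was 0.5 UMIs for the neonatal and 1 for the adult library, and 53 of 106 and 39 of 123 had none. Of these droplets 3 neonatal and 5 adult ones exceeded the same percentiles. The name "rich in mitochondrial and nuclear RNA" therefore held as a share of UMIs, not as a number of molecules, for the droplets with 20 to 60% mt- UMIs: their median was 118 Malat1 UMIs in the neonatal library and 95.5 among adult droplets, against 175 and 165 in comparison droplets. For those above 60% only the mitochondrial part of it held.

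**Figure D1:**
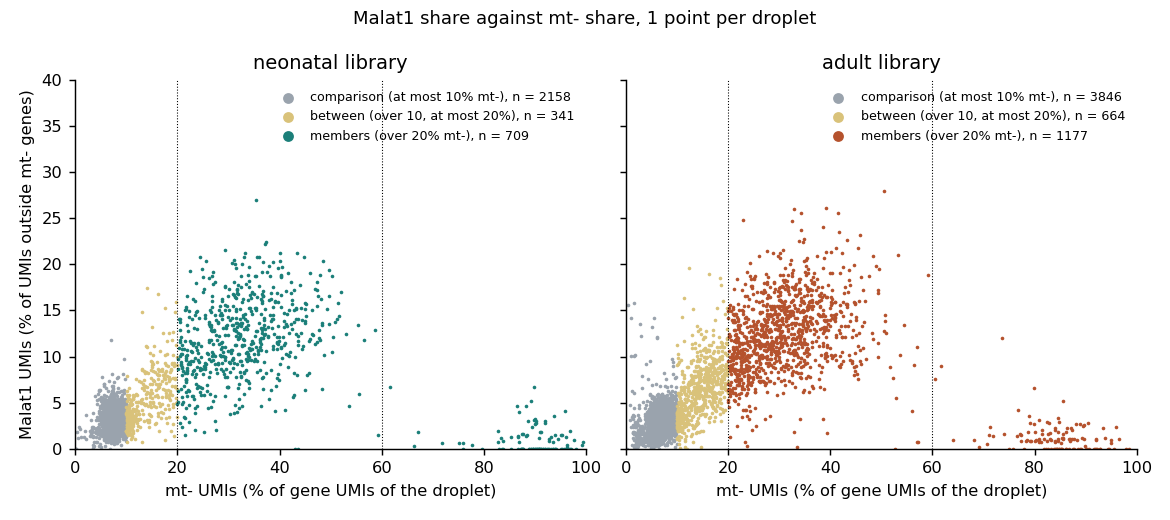
Share of UMIs outside mt- genes that came from Malat1 (y axis, %) against the share of mt- UMIs (x axis, %), 1 point per droplet of at least 500 UMIs, for each library, with dotted lines at 20% and 60% mt-. The Malat1 share is higher from 20 to 60% mt- than below 10%, few droplets lie near 60%, and those above 60% have almost no Malat1.

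Counted per droplet, Malat1 was reduced far less than the mRNA around it. Neonatal droplets with 5 to 10% mt- UMIs held a mean of 210 Malat1 UMIs, those with 20 to 30% held 138 and those with 40 to 60% held 105. The adult means over the same ranges were 241, 114 and 99.4 UMIs. Ribosomal protein mRNAs (79 genes) went over these ranges from 2102 to 159 and 72.2 UMIs per neonatal droplet and from 2951 to 113 and 63.5 per adult droplet. The higher share of Malat1 thus came with fewer Malat1 molecules per droplet, not with more. Mean mt- counts over the same ranges were 572, 470 and 627 UMIs in the neonatal and 653, 354 and 552 UMIs in the adult library.

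**Figure D2:**
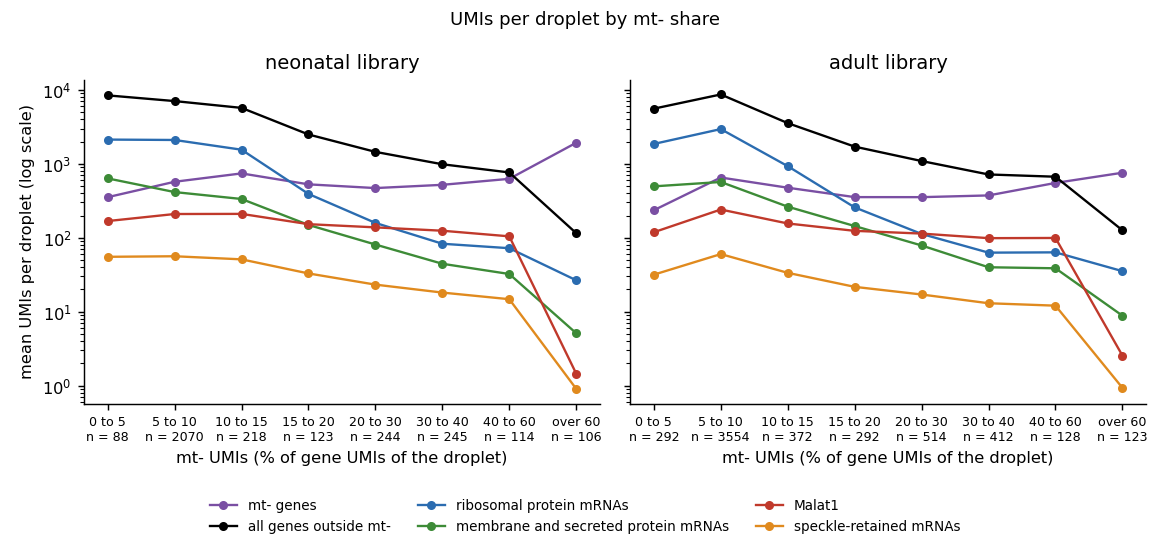
Mean UMIs per droplet (y axis, log scale) by share of mt- UMIs (x axis, with the number of droplets n), for mt- genes, all other genes, Malat1 and 3 gene lists. From 5 to 60% mt- the lines of Malat1 and the speckle-retained mRNAs are less steep than that of the ribosomal protein mRNAs, and above 60% Malat1 is near 1 to 3 UMIs per droplet.

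Over all mt-rich droplets, Malat1 made 10.98% of UMIs outside mt- genes in the neonatal library, which is 109780 CPM when a share is written on the usual CPM scale, and 117260 CPM in the adult library, against 29219 and 27456 CPM in comparison droplets. These are log2 ratios of 1.91 (1.90 to 1.92) and 2.09 (2.09 to 2.10), each of mt-rich over comparison droplets. Shares add up to a fixed total, so abundant genes with a lower share leave the others with a higher one. Over every gene that reached 50 UMIs the median log2 ratio was 0.43 for the neonatal and 0.55 for the adult library, and a ratio has to be read against that shift. Of 9389 neonatal genes tested, 20.4% were at least 2-fold higher and 7.99% at least 2-fold lower, and of 10204 adult genes 24.8% and 6.35%. A ratio above 0 was found for 68.9% of the neonatal and 73.0% of the adult genes, and among genes with at least 1000 UMIs for 60.1% and 68.3%.

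Nuclear non-coding RNAs other than Malat1 were also higher, 2462 against 1027 CPM in the neonatal and 1348 against 542 CPM in the adult library as a sum over 12 genes (log2 ratios of 1.26 and 1.31). With Malat1, 7 of 10 neonatal and 6 of 9 adult genes with at least 50 UMIs were at least 2-fold higher and none was 2-fold lower, with medians of 1.19 and 1.23. Neat1, the scaffold of paraspeckles, was at 783 against 307 CPM in the neonatal and 631 against 172 CPM in the adult library. Xist, which coats the inactive X chromosome, was at 755 against 213 CPM in the neonatal library, a log2 ratio of 1.83, and had 0 UMIs in the mt-rich droplets of the adult library, whose mice were male. Tug1 had log2 ratios of 1.23 and 1.22, and the microRNA host transcripts Mir142hg 1.11 and 1.57 and Mir17hg 1.41 and 1.84. Kcnq1ot1, which is held at the imprinted locus it silences, had smaller ratios of 0.65 and 0.52, close to the median gene. Pvt1 had ratios of -0.82 (-3.12 to 0.76) and -0.79 (-2.68 to 0.59) on 3 and 4 UMIs in mt-rich droplets. Kcnq1ot1 is annotated as antisense, and its UMIs may be shared with the gene it overlaps.

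Messenger RNAs that are known to be kept in the nucleus with unspliced introns, most of them for splicing factors, had the same direction. All 21 genes of this list had a ratio above 0 in both libraries, with medians of 1.07 and 1.26, and 12 neonatal and 15 adult genes were at least 2-fold higher. Son, a core protein of nuclear speckles, was at 2028 against 654 CPM in the neonatal and 1564 against 468 CPM in the adult library. Rbm39, a splicing regulator, was at 2544 against 936 and 2501 against 757 CPM. Clk4, a kinase of SR splicing factors, had log2 ratios of 1.43 and 1.79, and Ogt, the enzyme that adds O-GlcNAc to nuclear and cytosolic proteins, 1.52 and 1.72. The smallest ratio was that of Prpf38b, 0.33 and 0.64, which was below the median gene in the neonatal library and above it in the adult library.

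Ribosomal protein mRNAs showed the opposite. Their summed share was 10.1% of UMIs outside mt- genes in mt-rich droplets of either library, against 29.6% in the neonatal and 34.0% in the adult comparison droplets. All 79 genes were lower in both libraries, with median log2 ratios of -1.60 and -1.78, and 76 neonatal and all 79 adult genes were at least 2-fold lower. Per droplet the sum was 98.9 against 2103 UMIs in the neonatal and 81.8 against 2868 UMIs in the adult library. Rps12, of the small subunit, was at 1019 against 4564 CPM and 1040 against 5527 CPM, and Rpl35, of the large subunit, at 535 against 2588 CPM and 458 against 2134 CPM. Ribosomal protein genes have many processed pseudogenes, and reads shared with those copies could have been lost or split in the counting.

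Other mRNAs of cytosolic proteins were lower as well, but not evenly. Of 31 listed genes 29 neonatal and 28 adult ones had a ratio below 0, and 15 in each library were at least 2-fold lower, with medians of -1.0 and -0.81. Tpt1, which encodes a translationally controlled protein, was at 1994 against 7381 CPM in the neonatal and 2712 against 10426 CPM in the adult library. Tmsb4x, for the actin-binding thymosin β4, was at 3263 against 12644 and 3841 against 13045 CPM, and Gapdh, of glycolysis, at 152 against 541 and 221 against 518 CPM. Within the same list Pkm, also of glycolysis, had log2 ratios of 0.03 and 0.02, Eef2 of 0.02 and -0.48, and the actin regulator Coro1a of -0.10 and 0.13. The 74 nuclear-encoded subunits of oxidative phosphorylation, whose proteins work beside those of the mt- genes, had medians of -1.0 and -1.01, with 36 and 37 of them at least 2-fold lower. The share of the mt- genes of the same complexes chose the droplets and is not compared with them.

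Messenger RNAs translated on the endoplasmic reticulum lay between the nuclear and the cytosolic lists. As a sum over 32 genes they were 5.02% against 5.96% of UMIs outside mt- genes in the neonatal and 6.57% against 6.67% in the adult library, and their median ratios were 0.05 and 0.18. The invariant chain Cd74 was at 11077 against 11172 CPM in the neonatal and 16025 against 14615 CPM in the adult library, and the heavy chain Ighm at 4710 against 4804 and 4070 against 3485 CPM. The MHC class I gene H2-K1 had log2 ratios of 0.70 in both libraries, and the phosphatase Ptprc (CD45) 0.90 and 0.75. Other genes of the same list were lower: Igkc, the κ light chain, was at 4409 against 10532 and 5560 against 10724 CPM, B2m had log2 ratios of -1.13 and -0.96, Cd52 -1.38 and -1.49, and Sec61b, a subunit of the translocation channel, -1.97 and -1.81. Relative to the median gene the list was lower in both libraries. The λ chains Iglc1, Iglc2 and Iglc3 are near-identical copies, and their ratios (-1.48, -1.02 and -1.18 in the neonatal library) are uncertain one by one.

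**Figure D3:**
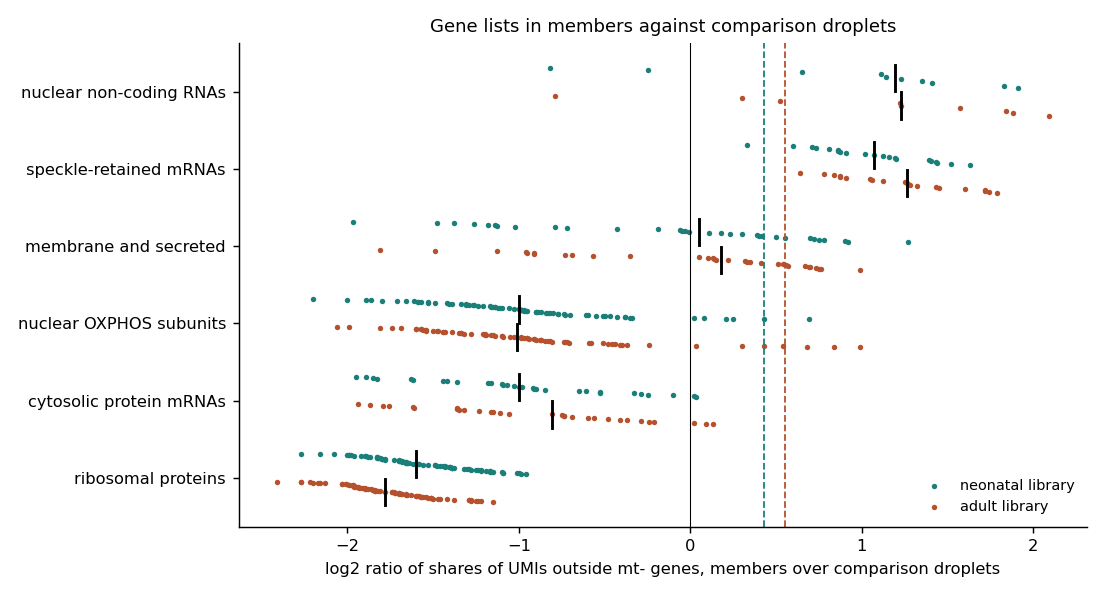
Log2 ratio of the share of UMIs outside mt- genes, mt-rich (members) over comparison droplets (x axis), for genes with at least 50 UMIs in 6 lists, 1 point per gene and library, with black bars at each list's median and dashed lines at the median of all genes (0.43 neonatal, 0.55 adult). Ribosomal protein mRNAs lie left of -0.9 in both libraries, speckle-retained mRNAs lie right of 0.3, and mRNAs of membrane and secreted proteins spread over both sides of 0.

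The ratio also followed the length of the transcript. Of genes with at least 1000 UMIs, those at least 2-fold higher in neonatal mt-rich droplets (383 genes, 15.8%) had a median transcript length of 5116.5 bases and 14 exons, and those at least 2-fold lower (295 genes, 12.2%) 1125 bases and 4 exons, against 3179 bases and 7 exons for all 2426. In the adult library the medians were 4865 bases for the 804 higher (20.2%), 1149 for the 349 lower (8.76%) and 3328 for all 3984 genes. Divided into 4 equal parts by length, the neonatal medians of the log2 ratio were -0.75, 0.03, 0.50 and 0.84 from the shortest to the longest, and the adult medians -0.52, 0.29, 0.66 and 0.88. Without the ribosomal protein genes the shortest part was still lowest, at -0.65 and -0.42. Across genes, which are not independent replicates, Spearman's rho between ratio and transcript length was 0.67 for the neonatal and 0.60 for the adult library. Length was that of the longest annotated transcript, and gene length, exon number and the presence of a run of at least 10 A's differ along with it: 31.4% of the higher, 6.10% of the lower and 23.1% of all neonatal genes held such a run. Which of these properties, if any, accounts for the ratio was not tested. Long non-coding RNAs were higher although their transcripts were not long, with 13 of 25 neonatal and 24 of 43 adult genes at least 2-fold higher and medians of 1.04 and 1.15 at median lengths of 2231 and 2110 bases.

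The genes with the largest ratios shared by both libraries were picked by rule, 12 in each direction. They needed at least 200 CPM in either droplet class of each library. A gene could therefore pass through only the class where it was higher, as Gm26699 and Lamb3 did, and the ranking is a description. The 12 highest were Gm26699, Gm31243, Mfsd4a, Lamb3, Malat1, Gm26532, Avl9, Galnt11, Ebf1, Srpk2, Alkbh1 and Arhgap45. The lincRNA Gm26699 led with 265 against 55.8 CPM in the neonatal library and log2 ratios of 2.25 and 2.44. Ebf1, the transcription factor that with Pax5 fixes B cell identity, stood at 6418 against 1834 and 5685 against 1291 CPM, while Pax5 itself had 483 against 277 and 495 against 302 CPM. Lamb3, a laminin chain, was at 325 against 85.3 and 464 against 121 CPM. The 12 lowest were S100a6, Tpt1 and 10 ribosomal protein genes, Rpl35, Rps12, Rpl39, Rpl22, Rpl32, Rpl34, Rps25, Rpl12, Rps7 and Rps24. S100a6, a small calcium-binding protein that is also a marker of B1 cells, was at 115 against 771 CPM in the neonatal and 116 against 688 CPM in the adult library. Gm31243 is annotated as antisense over 263 kb, and its UMIs could not be told apart from those of genes it overlaps.

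The 2 libraries gave similar ratios for abundant genes. Of 2415 genes with at least 1000 UMIs in both, 2216 (91.8%) had the same sign, 323 were at least 2-fold higher and 221 at least 2-fold lower in both, and none was 2-fold higher in one and 2-fold lower in the other. Pearson's r across these genes was 0.95 and Spearman's rho 0.95, a description across genes of 2 libraries prepared on the same day. With the limit at 50 UMIs, 83.1% of 9225 genes had the same sign, Pearson's r and Spearman's rho were 0.72, and 24 genes differed 2-fold in opposite directions.

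**Figure D4:**
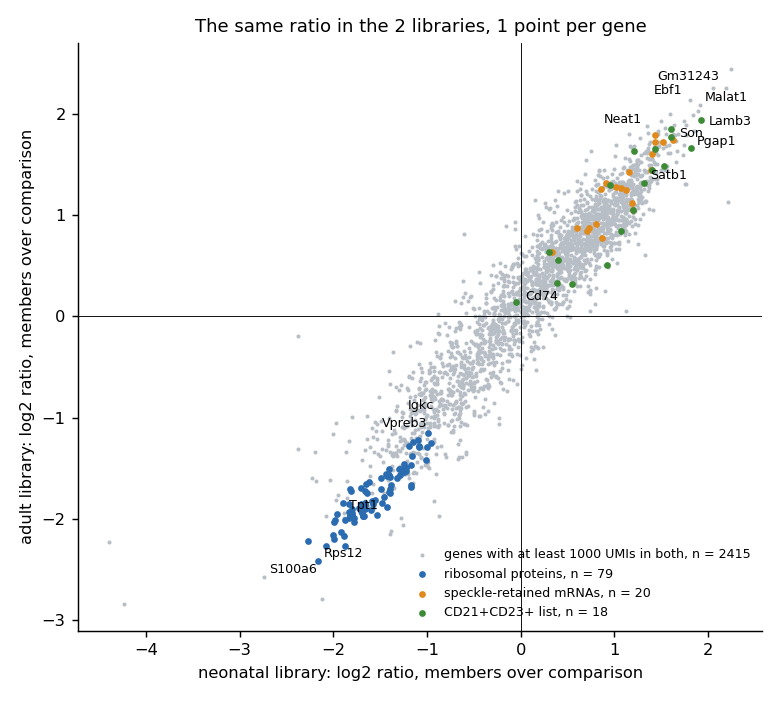
Log2 ratio of mt-rich (members) over comparison droplets in the neonatal (x axis) and the adult library (y axis), 1 point per gene with at least 1000 UMIs in both (2415 genes), with 3 lists in color. The points lie along the diagonal, with ribosomal protein genes at the lower left and speckle-retained and CD21+CD23+ list genes at the upper right.

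B cell genes were present in the droplets with 20 to 60% mt- UMIs. Each of the 603 neonatal and 1054 adult droplets with 20 to 60% mt- UMIs held UMIs of at least 1 of 10 B cell genes, with means between 21.7 and 50.5 UMIs over the ranges of mt- share, where near-empty droplets had 1.63 and 2.80. Above 60% the means were 2.64 and 4.09 UMIs, so a UMI of these genes, found in 89 of 106 and 117 of 123 droplets, does not mark a B cell there. In sum the 10 genes made 32097 against 35312 CPM in the neonatal and 36640 against 36274 CPM in the adult library. Markers of other blood cells were rare. Hemoglobin and other erythroid genes had 33.1 against 1622 CPM in the neonatal library, and macrophage genes 27.3 against 155 CPM. The 88 neonatal comparison droplets below 5% mt- held most UMIs of both lists: the 2070 with 5 to 10% had 8.01 CPM of the erythroid and 43.6 CPM of the macrophage genes. T cell genes stood at 40.3 against 29.8 CPM in the neonatal and 35.5 against 31.3 CPM in the adult library on 28 and 34 UMIs, most of the neonatal ones from Lck, which B cells can also express.

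Marker lists of B cell types differed in direction, also between genes of 1 list. The 6 follicular genes, of mature recirculating B cells, were each higher in both libraries. In sum they were 4184 against 2686 CPM in the neonatal and 5994 against 3641 CPM in the adult library. These are log2 ratios of 0.64 and 0.72, which were 0.21 and 0.17 above the median gene. Against comparison droplets below a depth limit, which may differ in kind as well as depth, the neonatal ratio was 0.18 (-0.03 to 0.41). The adult ratio was then 0.82 (0.70 to 0.95). Under median-of-ratios scaling the ratio was 0.02 in both libraries (-0.04 to 0.07 and -0.01 to 0.06). That scaling used the 2664 neonatal and 3333 adult genes with at least 50 UMIs in each droplet class. Satb1, a chromatin organizer, was at 896 against 360 and 982 against 394 CPM. Cr2 (CD21) was at 71.9 against 29.8 and 210 against 130 CPM, and Fcer2a (CD23) at 347 against 183 and 426 against 299 CPM. The 6 transitional genes, of B cells newly arrived from the marrow, were lower in sum, 1877 against 3703 CPM and 1603 against 2899 CPM, log2 ratios of -0.98 and -0.85. Within that list Vpreb3 (-1.54 and -1.13), Ly6d (-1.14 and -0.91) and Cd24a (-1.01 and -0.99) were lower, while Cd93 (1.02 and 0.33) and the transcription factor Sox4 (0.59 and 0.92) were higher. The adult Cd93 value was below that of the median gene, 0.55. Spib, the remaining gene, was above 0 in the neonatal and below 0 in the adult library. The 8 B1 genes had summed log2 ratios of -2.14 and -1.50, and the neonatal value was -1.25 with B cell droplets alone and -1.36 as a mean over droplets. The sums rested on S100a6: without it the ratio was -0.75 (-1.12 to -0.40) for the neonatal B1 genes, while the adult ratio turned to 0.23 (0 to 0.44). Relative to the median gene the ratios without S100a6 were -1.18 and -0.32, below it in both libraries.

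The study's own lists of 20 genes for each subset were compared as well. They were chosen on these libraries and so are not independent evidence. Of the list for CD21+CD23+ B cells, 18 neonatal and 19 adult genes had a ratio above 0, with medians of 1.21 and 1.18. At least 2-fold higher were 12 and 11 of them. Its members Mef2c (2469 against 852 and 2957 against 1050 CPM), Dmxl1 (732 against 240 and 927 against 257), Pgap1 (642 against 182 and 450 against 143) and Stat4 (260 against 85.6 and 337 against 99.0) led it. Of the list for CD21-CD23- B cells, 17 neonatal and 15 adult genes were below 0, with medians of -0.89 and -0.59, among them Igkc, Iglc1, Vpreb3 and Ly6d. The list for CD11b+ B cells had medians of -0.47 and -0.02, with S100a4 (-4.24 and -2.84, on 3 and 7 UMIs, intervals -6.52 to -2.69 and -4.16 to -1.80) and Tyrobp (-2.19 and -1.62) low, and the signaling adaptor Traf1 (1.04 and 0.94) high. Since both the subset lists and transcript length went with the ratio, a change in subsets and a change in which transcripts were kept cannot be told apart from these ratios.

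To ask which comparison droplets they most resembled, mt-rich droplets were thinned to 200 UMIs outside mt- genes and placed among 8 clusters of comparison droplets by their 2000 most variable genes. Of 709 neonatal and 1177 adult droplets, 610 and 1063 had enough UMIs, and all 99 and 114 left out had over 60% mt-. Comparison droplets thinned in the same way returned to their own cluster in 70.9% of neonatal and 62.7% of adult cases. In the neonatal library 71.3% (67.5 to 74.9%) of mt-rich droplets fell in cluster 1, led by Xist, Wfdc21 and Vpreb3 and left unnamed, against 64.3% of thinned comparison droplets. Another 25.7% (22.3 to 29.4%) fell in cluster 2, called follicular-like after Fcer2a, Ighd and Satb1, against 13.4%. Before thinning that cluster held 42 neonatal and 1718 adult comparison droplets, while 289 thinned neonatal ones were placed in it. Most neonatal comparison droplets placed there were thus misplaced, and neither neonatal share gives the number of follicular-like cells. In the adult library 77.8% (75.2 to 80.3%) fell in the follicular-like cluster, against 41.0%, and 17.4% in cluster 1, against 9.23%. At resolution 1.0 a cluster called transitional-like, with 4 of 6 markers, took 51.8% of neonatal and 14.6% of adult mt-rich droplets, against 38.1% and 5.10% of comparison droplets, although the summed transitional genes were lower in mt-rich droplets. That cluster had the highest Malat1 share of the clusters at resolution 1.0, 3.44%. Placement with the nuclear and ribosomal protein lists left out was run only at resolution 0.5, so their part in these shares was not tested. At resolution 0.5 the mt-rich droplets of each age were placed mainly in the cluster that also took the largest share of comparison droplets of that age. At resolution 1.0 this did not hold for the adult library, where 2 clusters were follicular-like. There cluster 1 took 2.35% of mt-rich and 22.8% of comparison droplets, and cluster 5 took 76.8% and 17.3%. Thinned comparison droplets returned to their own cluster less often at that resolution, in 58.1% of neonatal and 47.5% of adult cases.

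Other clusters took few of them. The B1-like cluster, led by S100a6, Tppp3 and Ctla4, took 0.820% (0.267 to 1.90%) of neonatal and 1.51% (0.863 to 2.43%) of adult mt-rich droplets, against 258 of 2158 and 552 of 3846 thinned comparison droplets (14.4% in the adult library). Cluster 3, led by Cr2, Pxdc1 and Ccr6, took 0.564% of adult mt-rich droplets against 26.8%. With the nuclear and ribosomal protein lists left out of the variable genes, the B1-like shares were 7.05% against 12.1% and 6.30% against 13.7%, and cluster 3 took 4.05% against 25.6% in the adult library. The follicular-like shares were then 30.5% and 72.7%. The B1-like and cluster 3 shares were thus higher without those lists and still below those of comparison droplets. Cluster 1 took 56.6% of neonatal mt-rich droplets against 60.9% of comparison droplets and 10.7% against 10.6% of adult ones, so its higher share in mt-rich droplets was not seen without the lists. The comparison droplets of the B1-like cluster were also the deeper ones, with a median of 14632 neonatal and 16159 adult UMIs against 5778.5 in neonatal cluster 1 and 4312.5 in the adult follicular-like cluster. Cluster names were rebuilt here from marker genes, no doublet caller was run, and the part of library depth in the placement was not tested.

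The droplets with over 60% mt- UMIs were of another kind. They held a median of 698.5 mt- UMIs for the neonatal and 577 for the adult library, more than comparison droplets, beside 77.5 and 108 UMIs outside mt- genes. Near-empty droplets, of ranks 45000 to 90000 by UMIs, gave the amount of free RNA per droplet: from it, 5669 UMIs outside mt- genes were expected where 12226 were counted in the neonatal library, and 10477 where 15539 were counted in the adult library. Their 204291 neonatal and 93205 adult mt- UMIs are a description, since the mt- share chose them. One neonatal droplet alone held 38358 mt- UMIs. Outside mt- genes, Malat1 stood at 12596 CPM (neonatal) and 20207 CPM (adult), against 14123 and 13037 CPM in near-empty droplets. A single droplet held 60 of the 154 neonatal Malat1 UMIs, and another held 98 of the 314 adult ones. Ribosomal protein mRNAs were at 230820 and 280010 CPM against 294660 and 325290 CPM. Genes that overlap ribosomal RNA (Gm42418, AY036118, Gm26917 and Lars2), whose counts are uncertain for that reason, were at 87764 and 60622 CPM against 47466 and 58792 CPM.

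Transcripts of heart muscle, vessels and connective tissue were found there beyond that background. The 8 cardiomyocyte genes had 68 UMIs (53 to 86) in 19 of the 106 neonatal droplets, where near-empty droplets gave 0.104 expected, and 17 UMIs in 11 of the 123 adult droplets, with 0.331 expected. A single droplet held 18 of the 68 neonatal and another 4 of the 17 adult UMIs, and the interval does not cover such clustering by droplet. Myl2, a ventricular myosin light chain, had 14 and 8 UMIs, and the neonatal droplets also held 14 UMIs of Myl3, 12 of Actc1 and 9 of Tnni3. The 6 endothelial genes had 46 UMIs in 20 neonatal and 17 UMIs in 11 adult droplets, with 0.575 and 0.951 expected, and Fabp4, the fatty acid carrier of heart capillaries, gave 36 and 14 of them. The most in a single droplet was 12 of the 46 neonatal and 3 of the 17 adult endothelial UMIs. Lpl, a lipoprotein lipase, Mb, which is myoglobin, and Pln, a regulator of the muscle calcium pump, were also there in the neonatal library, with 18, 16 and 8 UMIs. The 6 fibroblast genes had 15 and 6 UMIs with 0.132 and 0.481 expected, and macrophage genes 5 and 2 with 0.304 and 0.377 expected. The B cell genes had 280 and 503 UMIs with 173 and 344 expected from near-empty droplets. As a share of UMIs outside mt- genes they were not above near-empty droplets, at 22902 against 30463 CPM (neonatal) and 32370 against 32825 CPM (adult). Comparison droplets held 2.93 and 3.48 CPM of the cardiomyocyte genes, against 5562 and 1094 CPM in the droplets above 60% and 68.8 and 31.8 CPM in those from 20 to 60%, where 6 of 603 and 14 of 1054 droplets carried any. Within that range they were at 16.5 and 16.9 CPM from 30 to 40% and at 470 and 175 CPM from 40 to 60%.

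**Figure D5:**
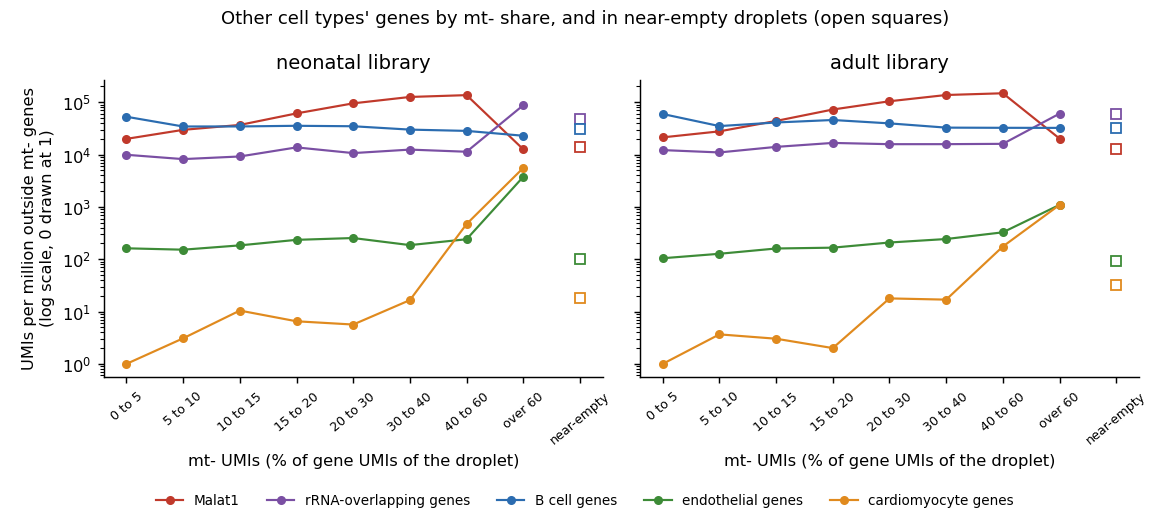
CPM of UMIs outside mt- genes (y axis, log scale, with 0 drawn at 1) by share of mt- UMIs (x axis) for Malat1, genes overlapping ribosomal RNA, and marker lists of B cells, endothelial cells and cardiomyocytes, with open squares for near-empty droplets. Cardiomyocyte and endothelial genes are highest above 60% mt-, at 5562 and 3762 CPM in the neonatal library. Cardiomyocyte genes are already higher from 40 to 60% than below 40%. Above 60% Malat1 is at 12596 CPM in the neonatal and 20207 CPM in the adult library, against 14123 and 13037 CPM in near-empty droplets.

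The mt- transcripts themselves differed in make-up between the sets. In droplets over 60%, mt-Co1, of complex IV, made 8.84% of neonatal and 10.7% of adult mt- UMIs, against 18.4% and 15.8% in comparison droplets, and 8.96% in the neonatal library without its largest droplet. The ATP synthase gene mt-Atp6 made 14.4% and 15.3% against 19.8% and 20.8%. Of complex III, mt-Cytb made 12.2% and 9.99% against 7.82% and 7.79%, and of complex I, mt-Nd2 made 8.60% and 9.81% against 5.16% and 6.80% and mt-Nd4 8.16% and 7.22% against 5.30% and 5.33%. In droplets from 20 to 60%, mt-Co1 made 15.04% and 12.2%, between the other values, and mt-Atp6 21.4% and 22.7%, above both. In near-empty droplets mt-Co1 made 12.2% and 11.1% and mt-Nd2 7.51% and 10.6%, nearer to the droplets over 60% than comparison droplets were. Their mt-Atp6, at 22.2% and 20.9%, and mt-Cytb, at 7.21% and 6.64%, were not nearer.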

How the data were processed

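The authors aligned reads to mm10 and counted UMIs per gene and droplet with Cell Ranger (3.0.2 per the file headers, a later release in the study's methods), and deposited raw counts for all droplets, without normalization. The annotation version is not given in the sources used here. The antibody rows held 3 and 2 UMIs and were not used. Everything else was computed here with Python 3.11.15, scipy 1.17.1 and scanpy 1.11.5. Counts were summed over the droplets of a class and divided by their UMIs outside mt- genes. Ratios are log2 of such shares, with exact conditional binomial 95% intervals and a floor of 3 counts for a class at 0, and genes needed 50 UMIs over both classes to be tested. Comparison droplets were clustered by Leiden at resolution 0.5, on 15 neighbors in 30 principal components of 2000 variable genes. Naming a cluster took 3 markers of a type, each 1.5 times higher and found in 25% of its droplets, and no more markers of another type than of its own among its 10 leading genes. Named genes are those of the lists, the mt- genes and the 12 highest and 12 lowest, and leading genes of clusters and Lpl, Mb and Pln were named after their values were seen. The droplets and the gene lists were chosen with earlier results of these data known. Gene positions, types and the sequence come from GENCODE (GRCm38). The ratio was tested on simulated data. Alternatives changed the mt- and UMI limits, the depth of comparison droplets, shared barcodes, free RNA, cell type filters, scaling, resolution and variable genes. Some items are not reported here.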

Additional observations from a re-analysis of the deposited data

Results flagged for a closer look

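The interferon-stimulated genes (Ifit1, Ifit2, Ifit3, Isg15, Irf7, Mx1, Oasl2 and Rsad2) had a summed log2 ratio of mt-rich over comparison droplets of 0.46 for the neonatal and -0.23 for the adult library, so the sums went in opposite directions. They rested on 53 and 222 UMIs in mt-rich droplets, relative to the median gene they were at 0.03 and -0.77, and the difference between the libraries was not tested.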

How the results depend on the processing

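Of 136 alternatives over 14 results 50 stayed within the spread of the value reported, and 121 of 122 ratios kept their sign, though 3 follicular ones had intervals that included 0. The exception was the B1 ratio without S100a6, chosen after the data were seen, at 0.23 for the adult and -0.75 for the neonatal library. Values are log2 ratios given as neonatal and adult, or the placed share for the follicular-like cluster. Scaled by the median of ratios, Malat1 was at 1.29 and 1.40, other nuclear non-coding RNAs at 0.64 and 0.62, ribosomal protein mRNAs at -2.17 and -2.45, transitional genes at -1.60 and -1.55, B1 genes at -2.77 and -2.20, and follicular genes at 0.02 in both. Against the 66 neonatal and 213 adult comparison droplets below a depth limit, Malat1 was at 2.50 and 2.21 and ribosomal protein mRNAs at -1.40 and -1.67. B1 genes were then at -1.72 and -1.68, follicular genes at 0.18 and 0.82, other nuclear RNAs at 1.67 (neonatal) and transitional genes at -0.71 (adult). Only an upper limit was set. These comparison droplets had a median of 625 and 673 UMIs outside mt- genes, against 872 and 704 in mt-rich droplets. A cluster of comparison droplets led by Hbb-bs and Hba-a1 was also shallow, with medians of 744.5 neonatal and 784 adult UMIs. Whether the droplets below the limit also differ in kind was not tested. As means over droplets, Malat1 was at 1.74 and 1.92, ribosomal protein mRNAs at -1.34 and -1.52, B1 genes at -1.36 and -1.13, follicular genes at 0.48 and 0.53 and transitional genes at -1.07 (neonatal). In droplets with 10 to 20% mt- UMIs, Malat1 was at 0.51 and 0.92, other nuclear RNAs at 0.40 and 0.64, ribosomal protein mRNAs at -0.25 and -0.55, transitional genes at -0.17 and -0.10, follicular genes at 0.28 and 0.59, B1 genes at -0.76 (neonatal), and the placed share was 20.5% and 71.8%. Above 30% mt-, Malat1 was at 2.09 and 2.30, ribosomal protein mRNAs at -1.68 and -1.81, transitional genes at -1.17 and -1.12, follicular genes at 0.57 in both, other nuclear RNAs at 1.41 (adult) and B1 genes at -1.89 (neonatal). From 20 to 60%, a limit chosen after the data were seen, Malat1 was at 1.93 and 2.11 and ribosomal protein mRNAs at -1.58 and -1.80. With B cell droplets alone, Malat1 was at 1.90 and 2.02, ribosomal protein mRNAs at -1.67 and -1.78, B1 genes at -1.25 and -1.23, follicular genes at 0.65 (adult) and transitional genes at -1.15 (neonatal). With free RNA subtracted, Malat1 was at 1.97 and 2.23, ribosomal protein mRNAs at -1.72 and -2.19, and adult follicular and transitional genes at 0.78 and -0.98. With at least 1000 UMIs, ribosomal protein mRNAs were at -1.56 and -1.78, and in the adult library Malat1 was at 2.06, B1 genes at -1.26, transitional genes at -0.74 and the placed share 73.2%. Without barcodes found in both libraries Malat1 was at 1.86 and 2.07 and B1 genes at -1.67 (neonatal). The placed share was 30.5% and 72.7% without the nuclear and ribosomal lists and 31.1% (neonatal) at resolution 1.0. The cause of these shifts was not tested. No paired analysis was possible because each age had 1 library, and for the same reason no library could be left out.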

Other observations

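Lists of stress and death genes had medians on both sides of 0. Immediate early genes, which rise within minutes of a stimulus or of tissue digestion, had medians of 0.18 and 0.40 over 15 of 16 genes (Ier3 had 0 UMIs in mt-rich droplets and no ratio), below the median gene, with Egr1 at 59.0 against 147 CPM in the neonatal and 35.5 against 92.6 CPM in the adult library and Junb at 2664 against 2026 and 3016 against 1904 CPM. Heat shock genes had medians of -0.40 and 0.07, with the chaperonin partner Hspe1 at 148 against 378 and 121 against 390 CPM. Of 12 neonatal and 13 adult p53 and apoptosis genes tested, 1 in each library was at least 2-fold higher (20.4% and 24.8% of all genes were) and 2 neonatal and no adult genes were at least 2-fold lower. The higher one was the BH3-only gene Bcl2l11, at 283 against 117 and 256 against 111 CPM, and Bax stood at 115 against 143 and 110 against 121 CPM. Cycling genes were lower in sum, 124 against 180 CPM and 79.4 against 150 CPM. The 5 genes of antibody-secreting cells had summed log2 ratios of -0.40 and -0.44, with 2 neonatal and 3 adult genes above 0. Among them Jchain, which joins antibody units, had log2 ratios of -4.39 (-6.67 to -2.84) in the neonatal library, on 3 UMIs, and -2.23 (-2.86 to -1.67) in the adult library.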
